A study of Mus musculus with 8 samples.

Results

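Steady distal common regions were sites away from promoters where NANOG was bound to about the same height with and without a fused BAF-recruiting domain, and where BRG1 was also bound in both cases. They came from CUT&Tag, a method that cuts and tags DNA for sequencing around the protein an antibody is bound to, on mouse embryonic fibroblasts (MEFs) at day 5 of reprogramming. All cells received Oct4, together with Nanog in the NanogWT arm or with the fusion that the labels call NanogN70 in the NanogBiD arm; per the study's text, BiD is the N-terminal stretch of SS18 that interacts with BRG1. The antibodies were against BRG1, the FLAG tag of the NANOG proteins, H3K4me1 and H3K27ac, and each of these 4 targets had 1 peak list per arm, made by the authors from merged replicates, so the 8 lists carry no replicate spread and no test between arms was possible. The lists average over all cells in the culture, whatever their state of reprogramming. The labels name no age, strain or sex of the MEFs. The titles of the H3K4me1 libraries say H3K4me1 but their antibody entry says H3K4me, and the title and the study's text were followed here.

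The members were chosen by merging overlapping or touching peaks of the FLAG and BRG1 lists of both arms into 93352 regions. Of these, 22084 held a peak of all 4 lists, and in 11715 of them the tallest NanogBiD FLAG summit lay over 2 kb from every annotated start site. In 8052 of the distal ones the tallest FLAG summits of both arms differed by a factor under 1.5, which made them members, 8.63% of all regions and 68.7% of the distal common ones. The other distal common regions were 2249 with a FLAG summit at least 1.5 times taller in NanogBiD (raised) and 1414 at least 1.5 times taller in NanogWT (lowered), and 10369 common regions lay within 2 kb of a start site (promoter regions). FLAG heights, and the presence of BRG1 peaks in both arms, therefore chose the members and are given below as a description only. Over all 44529 regions with FLAG peaks in both arms, 69.6% had heights within the same factor.

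NANOG is a homeodomain transcription factor of pluripotent cells that acts with OCT4 and SOX2 at enhancers. BRG1, encoded by Smarca4, is an ATPase of the BAF complex, which slides and evicts nucleosomes, and SS18 is a BAF subunit. H3K4me1 marks enhancers whether active or poised, while H3K27ac marks active enhancers and promoters. In fibroblasts many active enhancers hold AP-1 sites, the binding sites of FOS and JUN dimers, often beside sites of TEAD and RUNX factors.

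The sequences below run 50 bp to either side of the tallest NanogBiD FLAG summit, read on the plus strand of mm10 from the RefSeq copy of that assembly, and capitals mark matches to the searched motifs. The first set holds the members in which the lowest of the 4 FLAG and BRG1 heights was highest, shown because NANOG and BRG1 were strong there in both arms. Only the window near BC030867 held a match, to AP-1.
Shtn1 intron, chr19:58978886-58978986: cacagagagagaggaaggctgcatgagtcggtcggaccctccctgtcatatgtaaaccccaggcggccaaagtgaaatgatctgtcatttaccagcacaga
near Sec16b, chr1:157646058-157646158: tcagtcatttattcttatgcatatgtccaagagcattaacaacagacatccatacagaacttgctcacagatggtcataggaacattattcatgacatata
near Dip2c, chr13:9239807-9239907: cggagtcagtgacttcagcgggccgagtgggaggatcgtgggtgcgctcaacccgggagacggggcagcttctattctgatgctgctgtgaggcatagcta
near Fos, chr12:85455413-85455513: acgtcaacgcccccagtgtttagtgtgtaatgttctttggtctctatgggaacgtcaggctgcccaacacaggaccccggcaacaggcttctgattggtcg
Trio intron, chr15:27923780-27923880: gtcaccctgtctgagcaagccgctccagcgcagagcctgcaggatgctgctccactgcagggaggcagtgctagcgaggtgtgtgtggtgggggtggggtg
Kcnip1 intron, chr11:33767588-33767688: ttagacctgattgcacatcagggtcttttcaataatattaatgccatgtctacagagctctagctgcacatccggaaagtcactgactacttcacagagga
near BC030867, chr11:102245061-102245161: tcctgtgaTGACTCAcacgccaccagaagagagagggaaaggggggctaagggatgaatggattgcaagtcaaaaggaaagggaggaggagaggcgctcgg
Inpp5f intron, chr7:128672129-128672229: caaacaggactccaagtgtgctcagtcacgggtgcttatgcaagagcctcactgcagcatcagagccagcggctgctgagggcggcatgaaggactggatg

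The next set holds the 5 members with the highest BRG1 ratio of NanogBiD over NanogWT, shown to set beside the sequences of those with the lowest. The capitals mark a homeobox match near Hhat, and a TEAD and a SOX match in the Gm20125 intron.
near 1700012B07Rik, chr11:109908550-109908650: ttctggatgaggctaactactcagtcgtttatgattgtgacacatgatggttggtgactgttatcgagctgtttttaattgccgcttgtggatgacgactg
near Hhat, chr1:192776346-192776446: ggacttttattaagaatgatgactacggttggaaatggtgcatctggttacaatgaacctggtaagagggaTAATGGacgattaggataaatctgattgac
Gm20139 intron, chr10:19171017-19171117: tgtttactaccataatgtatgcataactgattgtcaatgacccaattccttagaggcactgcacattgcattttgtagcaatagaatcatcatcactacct
Spag16 intron, chr1:70358429-70358529: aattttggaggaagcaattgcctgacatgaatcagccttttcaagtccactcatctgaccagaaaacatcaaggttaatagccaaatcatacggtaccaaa
Gm20125 intron, chr10:17060035-17060135: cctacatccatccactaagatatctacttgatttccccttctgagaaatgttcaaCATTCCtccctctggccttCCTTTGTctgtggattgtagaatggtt

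Next come 4 members from the other end, with the lowest BRG1 ratios, whose windows held no match.
Plec intron, chr15:76190270-76190370: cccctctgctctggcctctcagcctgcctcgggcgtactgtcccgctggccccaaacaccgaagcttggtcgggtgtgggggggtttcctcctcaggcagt
near Pum2, chr12:8638693-8638793: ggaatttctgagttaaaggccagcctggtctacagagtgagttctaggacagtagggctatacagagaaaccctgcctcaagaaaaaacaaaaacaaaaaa
near 1700029H14Rik, chr8:13549045-13549145: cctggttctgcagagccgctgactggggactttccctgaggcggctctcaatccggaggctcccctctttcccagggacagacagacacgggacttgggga
near Gm5148, chr3:37875584-37875684: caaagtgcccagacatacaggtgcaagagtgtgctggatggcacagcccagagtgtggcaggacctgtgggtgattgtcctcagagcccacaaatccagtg

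The last set holds members with a composite OCT-SOX site, the sequence that OCT4 and SOX2 bind side by side in pluripotent cells. The 5 with the tallest FLAG summits are shown, chosen after their values were seen, with the composite and any octamer or SOX match in capitals.
Msra intron, chr14:64278616-64278716: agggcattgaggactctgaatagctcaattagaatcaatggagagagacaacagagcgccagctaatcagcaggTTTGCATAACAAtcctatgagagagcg
near Zfp507, chr7:35948782-35948882: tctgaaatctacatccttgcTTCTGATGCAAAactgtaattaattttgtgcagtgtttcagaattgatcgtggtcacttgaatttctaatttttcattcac
near Slain2, chr5:72902437-72902537: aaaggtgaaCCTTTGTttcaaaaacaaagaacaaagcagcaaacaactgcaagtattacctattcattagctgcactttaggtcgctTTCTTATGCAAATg
near Pwwp2b, chr7:139286324-139286424: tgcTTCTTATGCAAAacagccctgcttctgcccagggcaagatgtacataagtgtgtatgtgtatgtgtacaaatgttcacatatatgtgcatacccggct
Thsd4 intron, chr9:60460493-60460593: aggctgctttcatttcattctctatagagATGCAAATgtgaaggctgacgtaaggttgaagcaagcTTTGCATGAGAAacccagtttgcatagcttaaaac

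Across the members the FLAG heights of both arms lay within a factor under 1.5 by the rule, which leaves smaller differences. The tallest FLAG summit had a median of 22 tags in NanogWT (lowest 7, highest 92) and 22 in NanogBiD (7 to 87), where a tag is 1 sequenced fragment end piled up at the summit. It was taller in NanogBiD at 4007 members, taller in NanogWT at 3417 and equal at 628. The member nearest the upper limit had FLAG heights of 58 and 39, a factor of 1.487, and the first region outside had 22 and 33, a factor of 1.5 that 288 regions shared. There were 844 members with a factor over 1.4 and 899 distal common regions outside with a factor under 1.6. The FLAG ratio that remained correlated with the BRG1 ratio at 0.174 across members (Spearman, n = 8052). At the other limit, 242 members lay between 2 and 2.5 kb from a start site.

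Most members sat well away from genes' starts. Their median distance to the nearest start site was 15 kb; 52.5% of the NanogBiD FLAG summits lay in introns, 44.1% between genes and 3.43% in exons. The merged regions had a median width of 1563 bp, between 504 and 8303. The FLAG summits of both arms were a median of 70.5 bp apart, and at 80.8% of members they were within 200 bp, so the tallest summits usually marked the same position. Another member lay within 10 kb of 780 members (9.69%), and 4 members were on sequences with no annotated start site, which counted as distal and were left out of motif counts.

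At these sites, where NANOG heights were within the factor by the rule, BRG1 was taller with the fusion. The BRG1 summit had a median height of 13 tags in NanogWT (quartiles 10 and 17, highest 65) and 17 in NanogBiD (quartiles 13 and 22, highest 72). The ratio of NanogBiD over NanogWT had a median of 0.35 on the log2 scale (95% interval 0.32 to 0.35), a 1.27-fold increase. BRG1 was at least 1.5 times higher in NanogBiD at 2649 members, 32.9% (95% Wilson interval 31.9 to 33.9), against 20.5% of all 24738 regions with BRG1 in both arms. It was at least 1.5 times lower at 212 members, 2.63% (2.31 to 3.01), against 4.53% of all such regions, and 5191 members lay between. These intervals, and all below, cover counting error over regions only.

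The other classes of common regions set this in order. The median log2 BRG1 ratio was 0.61 (0.58 to 0.63) in raised regions, where 52.8% had BRG1 at least 1.5 times higher, and 0.00 (0.00 to 0.09) in lowered regions, where 13.7% did. Promoter regions in the same libraries had a median of 0.00, with 8.08% higher and 4.93% lower. The background median over all regions with BRG1 in both arms was 0.14. Heights were not scaled to library size, which is unknown, so the part of depth in these ratios was not tested. BRG1 also had to pass the peak threshold in NanogWT, where the lowest height was 6, which leaves out sites where BRG1 was found with the fusion alone.

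The BRG1 difference was largest where NANOG was tallest. The members were divided into 4 bins by the geometric mean of the FLAG heights of both arms. In the lowest bin, up to 16.5 tags, the median BRG1 height was 11 in both arms, the median log2 ratio was 0.00 (0.00 to 0.09) and 11% of 2049 members had BRG1 at least 1.5 times higher. In the next bin the ratio was 0.28 and the share 24.2%, and in the third 0.45 and 41.1%. In the tallest bin, from 30.2 to 82.5 tags, BRG1 went from a median of 17 to 27 tags, the median log2 ratio was 0.65 (0.61 to 0.68) and the share reached 55.7% (53.6 to 57.9) of 2013 members. BRG1 at least 1.5 times lower went from 6.93% in the lowest bin to 0.149%, 3 members, in the tallest. Promoter regions divided at the same limits had median log2 ratios of -0.09, 0.00, 0.05 and 0.12 and shares of 4.67% to 13.3%, so their tallest bin lay near the lowest bin of the members. The other distal classes climbed too, from 0.30 to 1.10 in raised regions (27.9% to 79.5% higher) and from -0.14 to 0.30 in lowered regions (7.19% to 24.5%), so the climb was not particular to the members. With heights of at least 15 in all lists the share in the lowest bin was 3.27%, and with each list reduced to its 20000 top-scoring peaks it was 27%, against 48.1% and 58% in the tallest. This division was made after the data had been seen, as 1 of 8 ways of dividing the members by height, position, mark or BRG1 that were looked at.

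**Figure D1:**
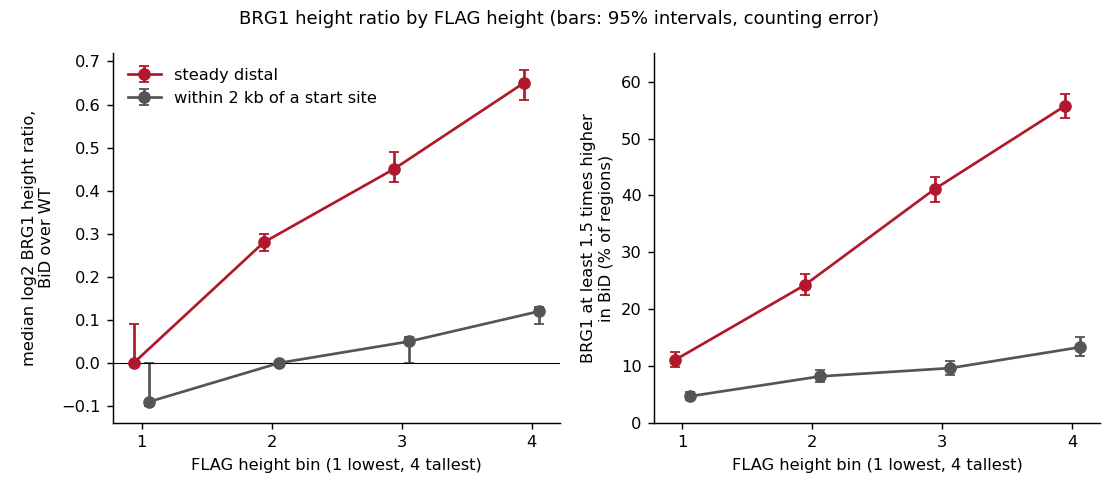
The left panel plots the median log2 BRG1 height ratio, NanogBiD over NanogWT, and the right panel the percentage of regions with BRG1 at least 1.5 times higher in NanogBiD, by bin of mean FLAG height, with 95% intervals for counting error. The steady distal regions climb from 0.00 to 0.65 and from 11% to 55.7%, while promoter regions at the same FLAG heights end at 0.12 and 13.3%.

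The link between both heights also differed by arm. Across members, the Spearman correlation of FLAG with BRG1 height was 0.421 in NanogWT and 0.840 in NanogBiD (n = 8052 in each). Among 2516 members with both BRG1 heights of at least 15, a limit above the NanogWT median and below the NanogBiD one, they were 0.249 and 0.809. In the other classes they were 0.311 and 0.822 at raised, 0.432 and 0.707 at lowered and 0.636 and 0.839 at promoter regions, so NanogBiD had the higher value in all 4 classes. Across arms, NanogWT FLAG height correlated with NanogBiD BRG1 height at 0.745, and NanogBiD FLAG with NanogWT BRG1 at 0.422. With FLAG heights close by the rule, the value thus went with the BRG1 list, whichever arm gave the FLAG heights. Over the 6167 members with H3K27ac in both arms, BRG1 height correlated with H3K27ac height at 0.616 in NanogWT and 0.607 in NanogBiD. FLAG height correlated with H3K27ac at 0.286 in NanogWT and 0.526 in NanogBiD. These are descriptions across regions of 1 library pair each, which share mappability, local chromatin accessibility and base composition, and the part of these was not tested.

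**Figure D2:**
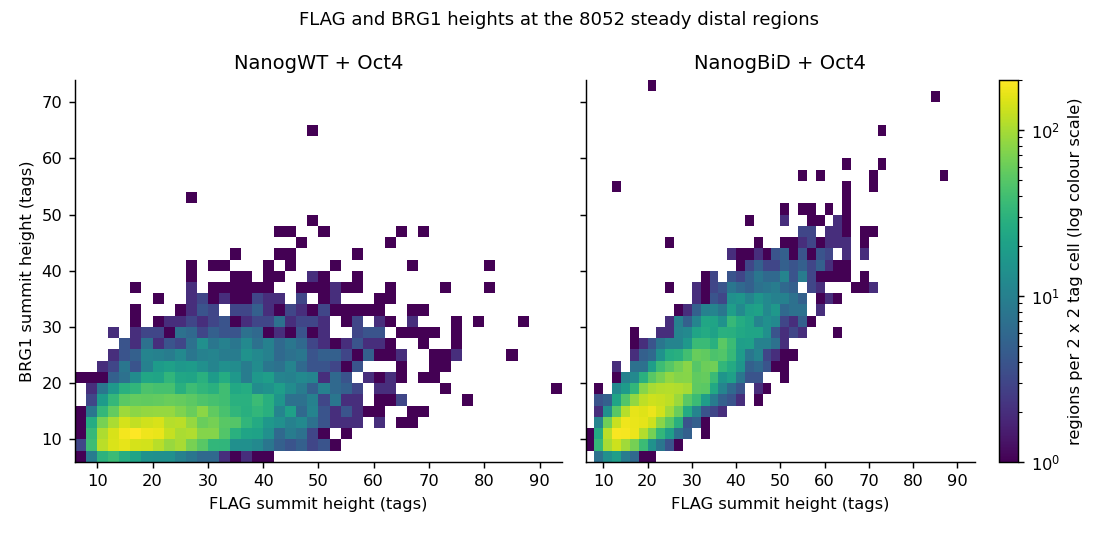
Each cell counts steady distal regions by FLAG summit height (horizontal, tags) and BRG1 summit height (vertical, tags), for NanogWT on the left and NanogBiD on the right, with a log colour scale. The regions form a narrow band in NanogBiD (Spearman 0.840) and a broad cloud in NanogWT (0.421), where tall FLAG summits often carried BRG1 summits below 20 tags.

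BRG1 summits also lay closer to FLAG summits with the fusion. The median distance between the tallest FLAG and BRG1 summits was 107 bp in NanogWT and 69 bp in NanogBiD. They were within 200 bp at 72.2% (71.2 to 73.2) of members in NanogWT and 81.6% (80.8 to 82.5) in NanogBiD. In raised regions the medians were 102 bp and 52 bp, in lowered regions 106 and 92 bp, and at promoter regions 93 and 80 bp. BRG1 was also taller in NanogBiD at these members, and the part of height in the distance was not tested.

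BRG1 ratios varied less with position than with FLAG height. The share of members with BRG1 at least 1.5 times higher was 26.1% between 2 and 5 kb from a start site, 28% between 5 and 10 kb, 34% between 10 and 50 kb and 43.4% (40.6 to 46.3) beyond 50 kb, and the median log2 ratio went from 0.26 to 0.47. It was 22.8% in exons, 31.7% in introns and 35.1% between genes. Over the 20 chromosomes with members the share was between 27.6% and 39.7% and the median log2 ratio between 0.28 and 0.43, so the difference was spread over the genome.

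In the full lists most members carried both enhancer marks in both arms. An H3K27ac peak overlapped 76.6% of members in both arms (75.7 to 77.5), 11.2% in NanogBiD only and 4.87% in NanogWT only, against 29.1%, 13.1% and 5.25% of all 93352 regions, and 590 had none. H3K4me1 was present in both arms at 70.5%, in NanogBiD only at 5.56% and in NanogWT only at 13.7%, against 36.2%, 9.52% and 13.9% of all regions, and 825 had none. Both marks were present in both arms at 4693 members (58.3%), and 163 (2.02%) had neither in either arm. The marks were not particular to the members among regions with the same 4 peaks. Over all 22084 common regions H3K27ac was present in both arms at 83.9%, H3K4me1 at 75% and both marks in both arms at 66.4%, and H3K27ac in both arms was at 67.6% of raised and 73.1% of lowered regions. H3K4me1 in both arms was at 42.3% with scores of at least 100 and 35.1% with each list reduced to its 20000 top-scoring peaks. Among members marked in 1 arm only, H3K27ac peaks were more often those of NanogBiD and H3K4me1 peaks more often those of NanogWT, whose H3K4me1 list was longer (72242 against 57156 peaks). With the 20000 top-scoring peaks the H3K4me1 order turned, to 12.5% in NanogBiD only and 10.9% in NanogWT only. With scores of at least 100 it did not, at 5.65% and 20.1%. Over all regions both marks leaned the same way. Raised regions leaned further for H3K27ac, with 22.5% in NanogBiD only and 1.96% in NanogWT only, while lowered regions leaned the opposite way, with 5.66% and 13.6%. For H3K4me1 the shares in NanogBiD only and NanogWT only were 8.8% and 10.9% in raised, 3.82% and 20.4% in lowered and 6.12% and 5.67% in promoter regions.

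Where a mark was present in both arms its height differed little. H3K27ac had a median log2 ratio of 0.07 (0.06 to 0.08) over 6167 members, beside 0.08 over all 27921 regions with H3K27ac in both arms. It was at least 1.5 times higher in NanogBiD at 11%, against 9.59% of those regions, and at least 1.5 times lower at 4.25%, against 4.01%. H3K4me1 had a median of -0.22 (-0.23 to -0.22) over 5677 members, beside -0.18 over all 41500 regions with H3K4me1 in both arms. It was at least 1.5 times higher at 0.898%, against 1.06%, and lower at 13.4%, against 11.7%. These shares were near the background. The share of members with BRG1 higher, 32.9%, was above the 20.5% of all regions with BRG1 in both arms, which include promoter regions (8.08%). Among the distal classes it lay between lowered (13.7%) and raised (52.8%) regions, so it was not particular to the members.

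Across groups of members by BRG1 ratio, H3K27ac differed in the same direction as BRG1. At the 2649 members with BRG1 at least 1.5 times higher in NanogBiD, H3K27ac was found in NanogBiD only at 15.5% (14.2 to 16.9) and in NanogWT only at 2.72% (2.16 to 3.41). At the 5191 with BRG1 within that factor the shares were 9.17% and 5.82%, and at the 212 with BRG1 lower they were 7.55% (4.7 to 11.9) and 8.49% (5.44 to 13). Among members with H3K27ac in both arms the median log2 H3K27ac ratio was 0.25, 0.00 and -0.24 in these groups. Across those 6167 members the BRG1 and H3K27ac ratios correlated at 0.396, and the BRG1 and H3K4me1 ratios at 0.192 over 5677. Read the other way, BRG1 was at least 1.5 times higher at 45.5% (42.3 to 48.8) of members with H3K27ac in NanogBiD only, 32.6% of those with it in both arms, 25.9% of those with none and 18.4% (14.8 to 22.5) of those with it in NanogWT only. H3K4me1 in NanogBiD only was at 8.23%, 4.35% and 1.89% of members with BRG1 higher, within and lower. H3K4me1 in NanogWT only was at 11.9%, 14.7% and 11.8%. BRG1 was higher at 48.7% of members with H3K4me1 in NanogBiD only, so this was not particular to H3K27ac. By FLAG height, both shares with H3K27ac in 1 arm only fell. H3K27ac in NanogBiD only went from 13.8% of the lowest FLAG bin to 7.4% of the tallest, where BRG1 was most often higher. H3K27ac in NanogWT only went from 9.22% to 1.09%. Where H3K27ac was present in both arms, its median log2 ratio went from 0.00 in the lowest FLAG bin to 0.17 in the tallest, the direction of BRG1. Whether the depths of the BRG1 and H3K27ac libraries differ between arms is unknown, and its part was not tested.

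**Figure D3:**
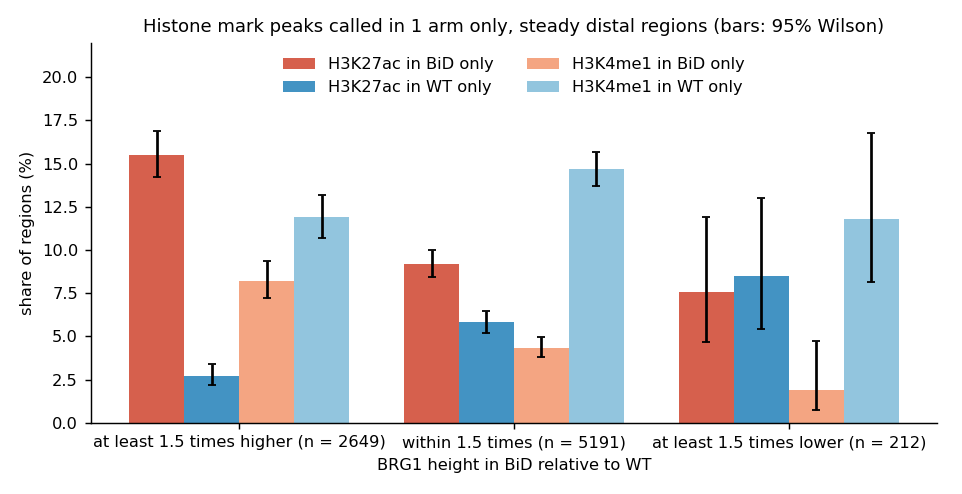
Bars give the percentage of steady distal regions with an H3K27ac or H3K4me1 peak in 1 arm only, grouped by whether BRG1 was at least 1.5 times higher, within 1.5 times or at least 1.5 times lower in NanogBiD, with 95% Wilson intervals. H3K27ac in NanogBiD only is most frequent where BRG1 was higher (15.5%), and H3K27ac in NanogWT only is least frequent there (2.72%).

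The largest marks gained or lost stood at single sites. Among the 903 members with H3K27ac in NanogBiD only, the tallest summit, 50 tags, was in an intron of Cubn (chr2:13409361-13414580), an endocytic receptor, where FLAG was 51 and 65 and BRG1 33 and 52 tags in NanogWT and NanogBiD. The next were in an intron of Mad1l1, a spindle checkpoint gene, with an H3K27ac summit of 42 and BRG1 of 28 and 33, and in an intron of Hrh1, the histamine H1 receptor, with 40 tags and BRG1 of 24 and 30. Of these 3, BRG1 reached the factor of 1.5 only at Cubn. Among the 392 with H3K27ac in NanogWT only, the tallest summit, 46 tags, lay 3.68 kb from Sertad1, where BRG1 was 41 in NanogWT and 28 in NanogBiD. The other two were in introns of Akna, with an H3K27ac summit of 44 and BRG1 of 24 and 25, and of St3gal3, a sialyltransferase, with 42 and BRG1 of 21 and 23. BRG1 differed by at most 2 tags at both. These members were chosen for their mark, so their mark heights are a description.

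AP-1 was the most frequent of the searched motifs under the NANOG summits of the members. AP-1 (TGACTCA or TGAGTCA, on both strands) lay within 50 bp of the NanogBiD FLAG summit at 911 of 8048 members, 11.3% (10.6 to 12), and in the like window 1 kb downstream at 1.84%. Of all 74000 regions with a NanogBiD FLAG peak, 7.72% held it. The share was 19.9% (18.3 to 21.6) in raised, 5.87% (4.76 to 7.22) in lowered and 3.11% in promoter regions, so the members lay between both other distal classes. The octamer ATGCAAAT was found at 2.57% of members and 0.559% of downstream windows, against 2.51% of all FLAG regions. The homeobox core TAATGG was at 5.96%, 3.78% downstream and 7.35% of all FLAG regions, and SOX letters (ACAATGG or ACAAAGG or ACAATAG or ACAAAAG) at 8.25%, 7.05% and 8.99%. TEAD (GGAATG) was at 8.03%, 5.64% and 6.76%, and RUNX (TGTGGTT) at 3.91%, 2.47% and 3.41%. The composite OCT-SOX site, whose octamer part overlaps the octamer search, occurred at 17 members (0.211%), and at 0.143% of all FLAG regions. The members thus held more AP-1 and fewer homeobox matches than FLAG regions as a whole. The low homeobox share was not particular to them, at 5.96% in raised, 4.88% in lowered and 2.05% in promoter regions.

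The motif content shifted with NANOG height. From the lowest to the tallest FLAG bin the homeobox share went from 3.37% (2.67 to 4.24) to 8.5% (7.36 to 9.8), the octamer from 1.22% (0.829 to 1.8) to 3.53% (2.81 to 4.43) and SOX from 6.84% (5.82 to 8.02) to 9.55% (8.34 to 10.9). AP-1 was 11.7% (10.4 to 13.2) in the lowest and 10.4% (9.18 to 11.9) in the tallest bin. RUNX went from 3.22% (2.54 to 4.08) to 4.87% (4.02 to 5.9) and TEAD from 6.74% (5.73 to 7.91) to 8.01% (6.9 to 9.27). The homeobox, octamer and SOX intervals of both bins did not overlap, while those of RUNX, TEAD and AP-1 did. Such overlap is not a test of a difference between bins, and none was made. The median G and C content of the windows went from 47.5% to 41.6%.

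**Figure D4:**
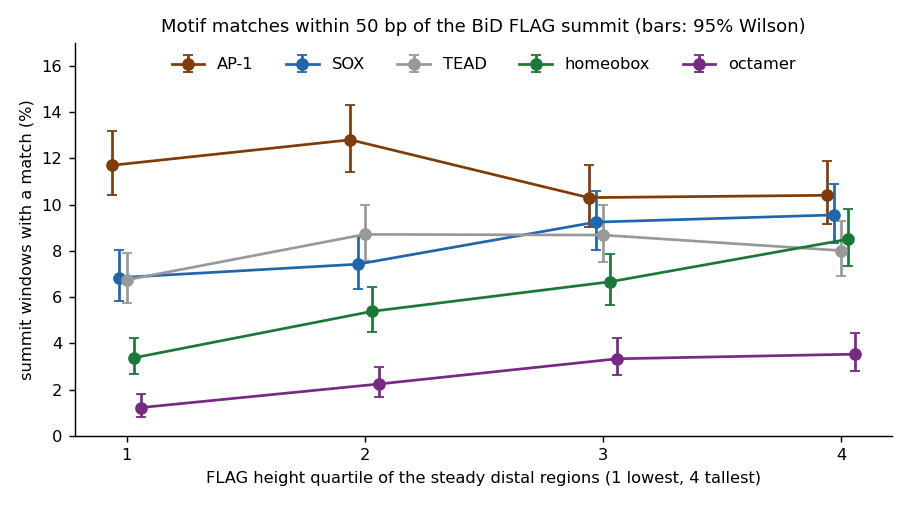
Points give the percentage of windows of 50 bp either side of NanogBiD FLAG summits of steady distal regions with a match to each motif, by bin of FLAG height, with 95% Wilson intervals. Homeobox and octamer matches climb from 3.37% to 8.5% and from 1.22% to 3.53%, and AP-1 stays between 10.3% and 12.8%.

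Motifs also differed by BRG1 ratio, and FLAG height differed with them. BRG1 was at least 1.5 times higher at 45.9% (39.2 to 52.7) of the 207 members with an octamer and 32.6% of those without. It was higher at 42.7% (38.4 to 47.2) of the 480 with a homeobox match against 32.3%, at 39.2% (35.5 to 42.9) of the 664 with SOX letters against 32.4%, and at 10 of the 17 with a composite site. It was higher at 30.8% (27.9 to 33.9) of the 911 with AP-1 against 33.2%, and at 30.8% of those with TEAD against 33.1%. Members with an octamer or homeobox match also had taller FLAG, with medians of 26.1 and 26.4 tags against 22. Within the tallest FLAG bin the octamer was at 4.28% (3.24 to 5.63) of members with BRG1 higher and 2.6% (1.74 to 3.87) of those within the factor, and the homeobox core at 9.36% (7.79 to 11.2) and 7.45% (5.9 to 9.37). SOX letters were at 11.1% (9.35 to 13) and 7.67% (6.1 to 9.62), and TEAD at 6.86% (5.53 to 8.49) and 9.48% (7.72 to 11.6). In the third bin the octamer shares were 3.56% and 3.21% and the homeobox shares 7.86% (6.21 to 9.92) and 5.9% (4.68 to 7.42), and in the second bin the octamer shares were 3.29% (2.03 to 5.27) and 1.9% (1.32 to 2.74) and the homeobox shares 5.54% and 5.44%. In the lowest bin the octamer was at 2 of 226 members with BRG1 higher (0.243% to 3.17%) and 21 of 1679 within the factor (0.82% to 1.9%), and SOX letters at 6.19% (3.73 to 10.1) and 7.09% (5.96 to 8.42), so the order was not the same in all bins. The paired intervals given here overlap, which is not a test of a difference. The windows were poorer in G and C where BRG1 was higher, with medians of 41.6%, 45.5% and 49.5% at members with BRG1 higher, within and lower.

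The members strongest in all 4 lists were chosen for tall BRG1 in both arms, which limits their ratios, so these are a description. The first, in an intron of Shtn1 (chr19:58978070-58982333), a neuronal polarity gene, had FLAG heights of 65 in NanogWT and 62 in NanogBiD and BRG1 heights of 47 and 48. At the site 18.4 kb from Fos, an AP-1 subunit (chr12:85453956-85458191), FLAG was 48 and 56 and BRG1 48 and 46. The site 36.7 kb from Dip2c (chr13:9238860-9240976) had FLAG of 51 and 55 and BRG1 of 46 and 57. At these 3 sites the exact 95% binomial intervals of the BRG1 ratio, which cover the counting of tags only, held 1. BRG1 went from 44 to 42 tags in the Kcnip1 intron and from 46 to 42 near BC030867. It went from 46 to 65 at the site 108 kb from Sec16b, from 42 to 59 in the intron of Trio, a guanine nucleotide exchange factor, and from 41 to 71 in the intron of Inpp5f (chr7:128670767-128673855), a phosphoinositide phosphatase. Only Inpp5f passed the factor of 1.5, at 1.73-fold with an interval above 1, and its FLAG heights, 80 and 85, were the tallest of the 8. In the Trio intron H3K27ac and H3K4me1 peaks were called in NanogWT only, with 36 and 22 tags.

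The members with the highest BRG1 ratio had low BRG1 in NanogWT and mid to tall FLAG. At the site 80.6 kb from 1700012B07Rik (chr11:109907637-109910610) BRG1 went from 8 to 43 tags, 5.38-fold (2.5 to 13.2), with FLAG at 41 and 59. At 5.17 kb from Hhat (chr1:192775301-192777294), the enzyme that attaches palmitate to Hedgehog proteins, BRG1 went from 7 to 31 and FLAG from 24 to 34. In the Gm20139 intron 155 kb from Tnfaip3 (chr10:19170277-19171714) BRG1 went from 7 to 31 and FLAG from 23 to 33. All 3 had an H3K27ac peak in NanogBiD only, with 22, 18 and 22 tags. In the intron of Spag16, a sperm axoneme gene, BRG1 went from 8 to 34 with FLAG of 36 and 38, and H3K27ac from 9 to 15. In the Gm20125 intron 663 kb from Cited2, BRG1 went from 10 to 40 with FLAG of 40 and 45, and H3K27ac from 13 to 25. These 5 were picked as the highest ratios among members with a BRG1 summit of at least 20 tags, so their size is a description, and all 5 passed that limit in NanogBiD only.

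The members with the lowest BRG1 ratio had short FLAG summits, between 9 and 18 tags in either arm at the 4 described. They were picked in the same way from the other end and reached 20 BRG1 tags in NanogWT only, so their ratios too are a description. In an intron of Plec, the cytolinker plectin (chr15:76189169-76190800), BRG1 went from 29 to 10 tags, with FLAG at 13 and 12. At 35.4 kb from Pum2 (chr12:8638272-8639256) it went from 31 to 11, with FLAG at 16 and 15. H3K27ac was called in both arms at Plec, with 23 and 18 tags, and in neither at the Pum2 site. At the 2 others, 13.3 kb from 1700029H14Rik and 151 kb from Gm5148, BRG1 went from 21 to 9 and from 23 to 10, and H3K27ac from 43 to 30 and from 29 to 16.

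The 5 composite OCT-SOX members shown above had tall FLAG, and BRG1 was taller in NanogBiD at each. In the Msra intron (chr14:64276915-64279778) FLAG was 53 in NanogWT and 64 in NanogBiD and BRG1 17 and 41, 2.41-fold (1.34 to 4.53). At 146 kb from Zfp507 (chr7:35947436-35950491) FLAG was 43 and 49 and BRG1 11 and 32, 2.91-fold (1.43 to 6.4). At 11.8 kb from Slain2 (chr5:72901173-72903511) FLAG was 41 and 52 and BRG1 14 and 31, 2.21-fold (1.14 to 4.5). At these 3 the interval of the BRG1 ratio lay above 1. BRG1 was 22 and 28 near Pwwp2b and 15 and 26 in the Thsd4 intron, and there the intervals held 1. All 5 had H3K27ac peaks in both arms.

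The members were also grouped by the protein-coding gene with the nearest start site, which names a position and no target; 4658 genes had at least 1 member and 2891 of them had 1 only. For each of 11 lists the number of members with BRG1 at least 1.5 times higher is set against 32.9% of all members and the median log2 ratio against 0.35. Neighbouring members of 1 gene are not independent, and several lists rest on a few genes.

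Of the 11 lists, those of AP-1 and RUNX genes had the largest shares with BRG1 higher. Near AP-1 family genes BRG1 was higher at 8 of 15 members, 53.3%, and lower at none, with a median log2 ratio of 0.58. Bach2, a repressor that binds AP-1-like sites, gave 3 of the 4 with the tallest FLAG: in its intron (chr4:32404369-32406708) FLAG was 49 and 50 and BRG1 18 and 32, and at the 2 others BRG1 went from 17 to 27 and from 23 to 37. Near RUNX genes BRG1 was higher at 7 of 14 members and lower at 1, with a median of 0.54; 2 sites in introns of Supt3, nearest to the start of Runx2, the osteoblast factor, went from 15 to 35 and from 14 to 35 with FLAG at 41 and 43 and at 48 and 39. Near Runx1, by contrast, BRG1 was higher at 1 of 8 members, with a median of -0.13, and was 24 and 20 in its intron and 16 and 17 at 250 kb, so most of the higher members of the list lay near Runx2. The AP-1 list also had taller FLAG, with a median mean height of 30.9 against 22.4, and RUNX had 21.7. Near TEAD and Hippo genes BRG1 was higher at 6 of 20 members and lower at none, median 0.20. There BRG1 went from 20 to 39 at 9.65 kb from Ccn1, a matricellular YAP target, and from 12 to 33 at 28.5 kb from Stk3, a Hippo kinase. It was 26 and 24 in the intron of Vgll4, a TEAD cofactor, and 21 and 28 in the intron of Tead1.

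Matrix and mesenchymal genes had the largest list and mostly moderate ratios. Near collagen and matrix genes BRG1 was higher at 8 of 43 members and lower at 1, median 0.26. At 11.1 kb from Col8a1, a short-chain collagen (chr16:57764988-57766920), BRG1 went from 8 to 27 with FLAG at 50 and 51, while at 2 sites in its introns it went from 28 to 37 and from 18 to 27. At 199 kb from Thbs1, a matricellular thrombospondin, BRG1 was 22 and 32. Near mesenchymal transcription factors it was higher at 2 of 18 and lower at none, median 0.32, with BRG1 of 29 and 39 at 83.5 kb from Twist1, 20 and 24 at 81.4 kb from Msx2 and 18 and 27 in the intron of Prrx1, a limb mesenchyme homeobox gene. At 266 kb from Osr1 it was 33 in NanogWT and 23 in NanogBiD, with FLAG at 46 and 32 and H3K27ac at 48 and 25. Near contractile and cytoskeleton genes it was higher at 1 of 8 and lower at none, median -0.05, and 3 sites near Vcl, the focal adhesion protein vinculin, had BRG1 of 40 and 46, 17 and 28, and 10 and 11. At 6.68 kb from Tpm2 it was 19 and 22.

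Near TGF-beta and BMP genes BRG1 was higher at 9 of 39 members, 23.1%, and lower at 2, with a median of 0.35. It went from 28 to 49 at 5.09 kb from Bmpr1a, a BMP receptor (chr14:34507026-34509567), and from 11 to 26 at 691 kb from Inhba, and it was 15 and 22 at a site in the Bmpr1a intron and 22 and 29 at 61.2 kb from Smad3. Near fibroblast growth and receptor genes it was higher at 7 of 19, 36.8%, and lower at 1, median 0.26. It went from 17 to 39 in the intron of Met, the HGF receptor (chr6:17552150-17556445), and from 16 to 27 in the intron of Igf1, and was 34 and 35 at 27 kb from Itga5 and 15 and 18 in the Igf1r intron.

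Of the 24 listed pluripotency genes, 8 had 15 members, with BRG1 higher at 5 and lower at 1, and a median of 0.19. In an intron of Sox2ot, 248 kb from the start of Sox2, BRG1 was 14 and 16 with FLAG at 32 and 30. At 119 kb from Klf4 it was 20 and 19 with FLAG at 28 and 28. It was 18 and 25 at 514 kb from Nr5a2 and went from 10 to 27 at 679 kb from Fbxo15. At such distances the nearest gene says little. Near epithelial genes BRG1 was higher at 2 of 6 and lower at 1, median -0.15. At 30.9 kb from Grhl2, an epithelial transcription factor, it went from 15 to 26, while at a second site 72.3 kb away it went from 20 to 11. It went from 12 to 21 at 4.09 kb from Esrp2, a splicing regulator, and was 20 and 18 at 21.8 kb from Epcam. Near BAF subunit genes it was higher at 1 of 12 and lower at none, median 0.31, and the 4 with the tallest FLAG all lay in introns of Arid1b, a DNA-binding BAF subunit, with BRG1 of 27 and 38, 38 and 33, 25 and 33, and 38 and 38.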

How the data were processed

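CUT&Tag was performed by the authors on day 5 reprogramming MEFs. Per the study's methods and the submitters' processing notes, reads were trimmed with Trim Galore 0.6.4, mapped to mm10 with Bowtie2 2.4.5, filtered with SAMtools 1.16.1, merged over replicates and peak-called with MACS 1.4.2, keeping 1 tag per position and naming no control. The deposited peak lists give a score per peak, at least 50 in every list, and the deposited summit lists give a signal per summit, the whole tag pileup, called height here. Neither was scaled by depth, which is unknown. The lists held 30859 to 74782 peaks; BRG1 had 30859 in NanogWT and 53748 in NanogBiD.

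Peaks and summits were joined by name and merged with Python 3.11.15, pandas 2.3.3 and pysam 0.24.0. The tallest summit of each list stood for a region. Start sites were those of GENCODE M21 (mm10), and sequence came from the RefSeq copy of the same assembly. Shares have Wilson 95% intervals and medians exact binomial intervals. With 1 merged library per group no test was made. Merging and classing were tested on simulated data. The members, gene lists and motifs were chosen with earlier results of these data known; divisions by height, position, mark, BRG1 and motif, and all correlations, were added after the data had been seen.

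Named regions were the 8 with the highest lowest-of-4 height, the 5 highest and 5 lowest BRG1 ratios among members with a BRG1 summit of at least 20 tags, the 3 tallest H3K27ac summits found in NanogBiD only and in NanogWT only, and up to 4 members per gene list by FLAG height; 1 of the 5 lowest BRG1 ratios is not reported here. Alternatives were a score of at least 100, a height of at least 15, the 20000 highest-scoring peaks per list, summits within 200 bp, a factor under 1.25, a factor centred on the median FLAG ratio, a distance over 5 kb, and for AP-1 a 25 bp window and the NanogWT summit.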

Additional observations from a re-analysis of the deposited data

How the results depend on the processing

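The direction of the BRG1 difference held under all 7 alternatives, while its size and the number of members depended on them; a value counted as moved when it left the 95% interval of the reported one, or 1.5 times for a count. Keeping peaks that score at least 100 left 3574 members, a height of at least 15 left 2424 and the 20000 highest-scoring peaks of each list 3091; all summits within 200 bp left 4544 and the tighter FLAG factor 4986. The median log2 BRG1 ratio was 0.26 under the height limit, 0.50 with the highest-scoring peaks, 0.38 with summits within 200 bp and 0.38 with the factor centred on the median FLAG ratio. The share with BRG1 higher was 31.8% with the score, 22.8% with the height, 44.4% with the highest-scoring peaks, 35.7% with close summits, 35.3% with the centred factor and 34.2% over 5 kb from a start site; the share lower was 1.43%, 0.619% and 0.388% with the score, the height and the highest-scoring peaks. H3K27ac in both arms was 80.9% with the height and 69.7% with the highest-scoring peaks. H3K27ac in NanogBiD only was 10.2%, 9.32%, 12%, 11.9%, 10.5% and 12% with the score, the height, the highest-scoring peaks, close summits, the tighter factor and the centred factor, and in NanogWT only 5.88%, 6.66% and 4.32% with the score, the highest-scoring peaks and the centred factor. H3K4me1 in both arms was 42.3%, 59.6%, 35.1% and 71.9% with the score, the height, the highest-scoring peaks and close summits, in NanogBiD only 12.5% with the highest-scoring peaks, above the 10.9% in NanogWT only, and in NanogWT only 20.1%, 20.4% and 12.8% with the score, the height and close summits. AP-1 was at 5.54% within 25 bp and 9.69% at the NanogWT summit. The cause of these moves was not tested. The remaining 32 planned recomputations stayed inside their limits. In recomputations added after the data had been seen, the tallest FLAG bin had BRG1 higher at 48.1% to 59% and the lowest at 3.27% to 27%, and the correlation of FLAG with BRG1 height was 0.236 to 0.438 in NanogWT and 0.801 to 0.844 in NanogBiD. No paired analysis was possible because no group holds over 1 list. Heights of 6 to 20 tags carry wide counting error, the spread between cultures is unknown, and peaks missed in one list at its depth leave regions out of the members.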

Other observations

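A few further sequence features of the members were seen. The CTCF consensus, the site of an insulator protein, lay within 50 bp of the NanogBiD FLAG summit at 32 members, and BRG1 was at least 1.5 times higher in NanogBiD at 4 of them, 12.5% (95% Wilson interval 4.97 to 28.1), against 33% of the members without it; their median FLAG height was 17.2 tags against 22.4. Windows in which over 50% of the bases are masked as repeats in the RefSeq assembly made up 6.37% of the summit windows (5.86 to 6.93) and 21.5% of those 1 kb downstream, near the 6.86% and 20.4% of all regions with a NanogBiD FLAG peak. Promoter summits had 1.8%. The authors removed repetitive and low-quality alignments, and the part of this filter was not tested. Among protein-coding genes, Pde4d, a cAMP phosphodiesterase, was the nearest gene to the most members, 15, of which BRG1 was at least 1.5 times higher at 7. Pik3c3, a phosphatidylinositol 3-kinase, and Slc4a3, an anion exchanger, were each nearest to 13, of which it was higher at 8 and 7. Over all members that share was 32.9%. These genes were named for their number of members only, and neighbouring members of the same gene are not independent.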
